A study of Mus musculus with 24 samples.

Results

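Common lymphoid progenitors (CLPs) that had lost both phospholipase Cγ isoforms were compared, gene by gene, with what the loss of each isoform alone adds up to. The comparison used all 12 CLP libraries of the 24 libraries in the series, 3 from each of 4 genotypes. These were the wild type Plcg1+/+Plcg2+/+, the single knockouts Plcg1-/-Plcg2+/+ (loss of Plcg1) and Plcg1+/+Plcg2-/- (loss of Plcg2), and the double knockout Plcg1-/-Plcg2-/- (loss of both, here called double-deficient). The other 12 libraries are B cell progenitors of the same mice. Donors of every genotype carried MxCre, a Cre recombinase whose Mx promoter responds to interferon and is therefore not limited to lymphoid cells, and a YFP reporter that Cre switches on. Every donor received poly(I:C) at 6 to 12 weeks of age, which deletes the floxed Plcg1 allele where it is present, whereas the Plcg2 allele is absent from the germline. Donors of both sexes were of a mixed 129 and C57BL/6 background. Their bone marrow was transplanted into lethally irradiated wild-type CD45.1+ mice, and donor-derived Lin-IL-7R+ CLPs were sorted 6 to 8 weeks later. The number of donors per genotype is not given in the sources used here, so p-values measure the spread between 3 recipients, which may share a donor.

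Phospholipase Cγ1 and Cγ2 cleave the membrane lipid PIP2 into diacylglycerol, which recruits RasGRP exchange factors and protein kinases C and D, and inositol trisphosphate, which releases calcium from intracellular stores and activates calcineurin and NFAT. Both isoforms act downstream of tyrosine kinases at antigen, cytokine and growth factor receptors. CLPs are the bone marrow cells from which B cells and part of the other lymphoid lineages arise, and they depend on interleukin 7. When a pair of related enzymes substitute for each other, the loss of both can change a gene that neither single loss changes. The present comparison measures this and any other departure from the sum of the single losses. The interaction is the log2 value in Plcg1-/-Plcg2-/- CLPs minus that in Plcg1-/-Plcg2+/+ CLPs minus that in Plcg1+/+Plcg2-/- CLPs plus that in Plcg1+/+Plcg2+/+ CLPs. It is 0 where the fold changes of the single losses multiply, and a gene is said here to lie above or below the sum where it is positive or negative.

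Between 4232345 and 33219995 reads fell on genes per CLP library, so that 3 reads, the floor of counting, corresponded to 0.0903 to 0.709 CPM (reads of a gene scaled to a common library total). Between 17.9% and 45.2% of reads fell on no gene, with the highest share in Plcg1+/+Plcg2-/- replicate 3, which was also the shallowest. The CLP genes Il7r (133 to 496 CPM), Rag1 (178 to 867 CPM) and Kit (34.3 to 156 CPM) were read in every library. So was the granulocyte and monocyte gene Mpo (1230 to 4320 CPM), whereas the haemoglobin genes Hba-a1 and Hbb-bs had 0 reads. Plcg1+/+Plcg2+/+ replicate 1 stood apart from its group, with the highest Flt3 (735 CPM) of the 12 libraries, against 25.6 and 58.5 CPM in replicates 2 and 3. Flt3 also varied within other groups, at 83.3, 438 and 69.8 CPM with the loss of Plcg1 and 89.3, 419 and 78.9 CPM with the loss of Plcg2. With both losses it was 115, 189 and 46.5 CPM. Because RNA was measured in bulk, fewer cells of a type and less RNA per cell cannot be told apart.

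The targeted genes were read first. Plcg2 RNA was 196, 279 and 220 CPM in Plcg1+/+Plcg2+/+ CLPs, 202, 226 and 233 CPM in Plcg1-/-Plcg2+/+ CLPs, 127, 101 and 137 CPM in Plcg1+/+Plcg2-/- CLPs and 114, 95.1 and 115 CPM in Plcg1-/-Plcg2-/- CLPs. All 6 libraries labelled Plcg2-/- lay below all 6 others, and the interaction was -0.10 (SE 0.23). Plcg1 was 107, 112 and 100 CPM in the wild type, 70.4, 136 and 111 CPM with the loss of Plcg1, 89.6, 96.9 and 93.6 CPM with the loss of Plcg2 and 87.3, 144 and 185 CPM with both. Counts over the whole Plcg1 gene thus did not separate the labels and do not check the deletion, and a Plcg1 genotype named here is the one on the label. All 6 libraries labelled Plcg1-/- also had more Xist RNA (1310 to 2250 CPM) than the 6 labelled Plcg1+/+ (23.5 to 741 CPM), and less of the Y-linked Ddx3y (1.44 to 19.3 against 98 to 134 CPM). The sex of the donor cells thus moved with the Plcg1 label. A difference of that kind enters the effect of Plcg1 and cancels in the interaction only where it is the same at both Plcg2 genotypes. The interaction was -1.39 (SE 1.13) for Xist, -1.57 (SE 0.74) for Ddx3y and -2.19 (SE 0.92) for Uty, and the part of sex in the values below was not tested.

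Most genes lay close to the sum within the error of this design. Of 15209 genes tested, 3 were called (0.0197%), with edgeR's adjusted p not over 0.05 and a log2 interaction of 0.5 or more in size. Gm5801 and BC002163 were above the sum (0.0132%) and Serinc3 was below it (0.00658%). The unadjusted p of the same test, here called nominal, was 0.05 or less in 725 genes (4.77%), 428 above (2.81%) and 297 below (1.95%). Such genes are not calls. The median interaction was -0.04 and 46% of genes were positive. Its median SE was 0.39, against 0.28 for each knockout compared with the wild type, since the interaction carries the error of all 4 groups. In the comparisons of a single genotype with Plcg1+/+Plcg2+/+ CLPs, 434 genes (2.85%) had a nominal p of 0.05 or less with the loss of Plcg1, 596 (3.92%) with the loss of Plcg2 and 1143 (7.52%) with both. These 3 comparisons share their wild-type libraries. Without the 2 shallowest libraries no gene was called by edgeR, with 360 at a nominal p of 0.05 or less, and the number at that p was 1933 without Plcg1+/+Plcg2+/+ replicate 1. DESeq2 called 29 genes, 21 above and 8 below, which included these 3. With a block for replicate numbers edgeR called 9 genes, which included these 3. A nominal p of 0.05 or less was then found in 1423 genes (9.36%).

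Serinc3, which encodes a multipass membrane protein of a family known for incorporating serine into membrane lipids and for restricting retroviruses, was low in the double-deficient CLPs and in no other group. It had 1130, 1520 and 1450 CPM in Plcg1+/+Plcg2+/+ CLPs, 1210, 1240 and 1230 CPM in Plcg1-/-Plcg2+/+ CLPs, and 1980, 2070 and 1740 CPM in Plcg1+/+Plcg2-/- CLPs. In Plcg1-/-Plcg2-/- CLPs it had 429, 261 and 287 CPM. The 3 double-deficient libraries were below all 9 others. The single losses differed from the wild type by a log2 value of -0.16 (SE 0.19) and 0.49 (SE 0.19), both losses by -2.07 (SE 0.19), and the interaction was -2.40 (SE 0.27, adjusted p = 0.00851). Without Plcg1+/+Plcg2-/- replicate 1 the adjusted p was 0.0539 and without Plcg1-/-Plcg2-/- replicate 3 it was 0.0511, with leave-one-out interactions of -2.62 to -2.23. With the share of reads on no gene in the model it was 0.0681 at an interaction of -2.40, and without the 2 shallowest libraries 0.11 at -2.55.

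Serinc3 lies at chr2:163623273-163645149 of GRCm38.p6, 2.85 Mb from Plcg1 on the same chromosome. The long noncoding gene 0610039K10Rik at chr2:163644850-163645800 overlaps its 5′ end on the opposite strand. Since strand-specific counting is not stated, reads of the 2 genes in the overlap cannot be told apart. 0610039K10Rik had 2.01 to 2.90 CPM in the wild type, 2.08 to 2.69 with the loss of Plcg1, 2.64 to 5.36 with the loss of Plcg2 and 0.517 to 0.999 with both. It thus showed the same order of groups, with an interaction of -2.34 (SE 0.54) that edgeR did not call (adjusted p = 0.862). It was called with all 24 libraries in 1 edgeR fit and by DESeq2. The gene had 6 to 94 reads in a CLP library, but 27.8 to 202 CPM in the B cell progenitors. The call with 24 libraries thus does not rest on CLPs alone. The sequence upstream of Serinc3 is shown because it is shared by Serinc3 and 0610039K10Rik. RefSeq's promoter table held this 1 of the 3 called genes. The 250 bases before the start of Serinc3, on the minus strand at chr2:163645144-163645393, lie within 0610039K10Rik. They are in lower case throughout, since capitals would mark a match to a motif searched.
Serinc3 promoter: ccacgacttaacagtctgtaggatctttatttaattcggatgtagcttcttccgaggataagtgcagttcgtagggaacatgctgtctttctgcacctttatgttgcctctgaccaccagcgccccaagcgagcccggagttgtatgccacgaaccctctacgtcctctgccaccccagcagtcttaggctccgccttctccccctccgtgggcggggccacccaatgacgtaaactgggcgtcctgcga
The motifs searched on both strands were the E-box CANNTG, the NFAT core GGAAA, AP-1 TGANTCA, STAT TTCNNNGAA, ETS CCGGAA and the EBF palindrome. The printed bases held no match to any of them. The transcribed 50 bases that follow held 1 match to GGAAA, which 61.3% of 32851 promoter windows of the same length also held, and 1 overlapping match to CCGGAA, which 14.9% held. CANNTG was in 72.3% of windows, TGANTCA in 7.81%, TTCNNNGAA in 8.30% and the EBF palindrome in 0.904%.

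Gm5801 and BC002163, both above the sum, are processed pseudogenes, copies of spliced transcripts inserted elsewhere in the genome. Gm5801 had 2.97, 4.35 and 2.73 CPM in Plcg1+/+Plcg2+/+ CLPs and 2.66, 4.39 and 3.96 CPM in Plcg1-/-Plcg2-/- CLPs. It had 0.298, 0.337 and 0.099 CPM in Plcg1-/-Plcg2+/+ CLPs and 0.171, 0.356 and 0.22 CPM in Plcg1+/+Plcg2-/- CLPs. Both single-deficient groups were thus below all wild-type libraries, whereas the double-deficient group overlapped the wild type. The log2 difference from the wild type was -3.63 (SE 0.49) and -3.63 (SE 0.51) for the single losses and 0.15 (SE 0.42) for both, with an interaction of 7.41 (SE 0.71, adjusted p = 0.00548). The Plcg1-/-Plcg2+/+ libraries held 5, 7 and 1 reads of Gm5801 and the Plcg1+/+Plcg2-/- libraries 3, 8 and 1. Some of these counts lie at or below the floor of 3 reads, so the size of its fitted fold is uncertain. BC002163 had 5.14, 6.77 and 6.25 CPM in the wild type, 0.954, 0.818 and 0.693 CPM with the loss of Plcg1, 4.62, 5.38 and 4.61 CPM with the loss of Plcg2, and 7.14, 5.86 and 7.22 CPM with both. It was low in the Plcg1-/-Plcg2+/+ libraries and in no other group, with an interaction of 3.32 (SE 0.36, adjusted p = 0.00851). Its adjusted p was 0.0539 without Plcg1+/+Plcg2-/- replicate 1 and 0.0511 without Plcg1-/-Plcg2-/- replicate 3. Without the 2 shallowest libraries the adjusted p was 0.0995 for Gm5801 and 0.116 for BC002163, and with the share of reads on no gene in the model it was 0.0425 and 0.0681.

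**Figure D1:**
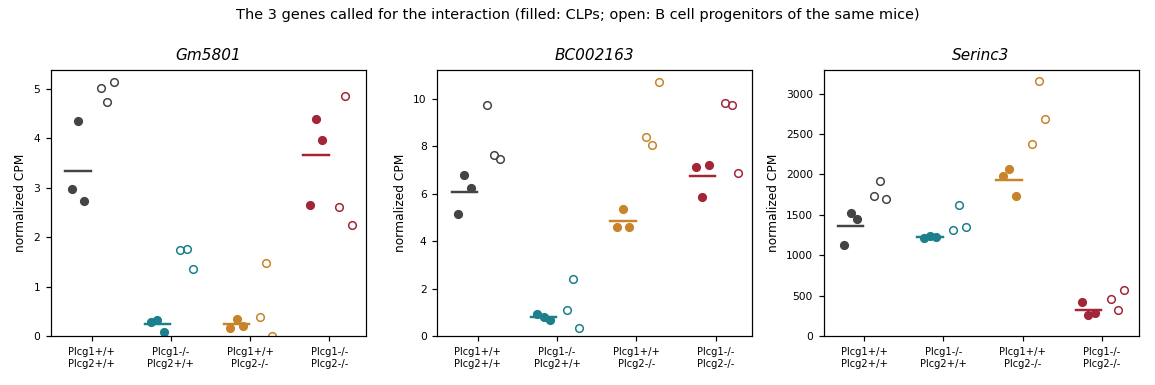
Normalized CPM (y axes from 0) of the 3 called genes by genotype, with filled points for CLP libraries, lines for their means and open points for B cell progenitor libraries of the same mice. Gm5801 is low with either single loss, BC002163 with the loss of Plcg1 alone, and Serinc3 with both losses, at 261 to 429 CPM in CLPs.

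Both pseudogene values are uncertain, because reads of a near-identical parent can be assigned to a copy. Gm5801, at chr14:56010536-56011315 in GENCODE M21 on GRCm38, differs from the coding sequence of Ube2j2, a ubiquitin-conjugating enzyme of the endoplasmic reticulum on chromosome 4, at 6 of 780 bases (99.2% identity), and the longest stretch without a difference is 198 bases. With positions counted from 1 at the start of the copy and the base of Ube2j2 first, the differences are G175A, A273G, G390A, C589G, C678T and C735T. BC002163, at chr16:42955631-42955949, differs from the coding sequence of Ndufs5, a subunit of respiratory complex I on chromosome 4, at 2 of 319 bases (99.4%), T81C and A105G, with 214 bases as the longest identical stretch. The 120-base windows below hold as many differences as any window of that length, 2 in each pair, marked by capitals. They are shown because reads within the copied stretch separate a copy from its parent only at differing bases. Those of Gm5801 at 390, 589, 678 and 735 lie outside its window.
Ube2j2, bases 154 to 273 of the copy: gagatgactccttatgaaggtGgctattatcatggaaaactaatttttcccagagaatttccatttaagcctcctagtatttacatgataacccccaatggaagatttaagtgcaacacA
Gm5801, bases 154 to 273: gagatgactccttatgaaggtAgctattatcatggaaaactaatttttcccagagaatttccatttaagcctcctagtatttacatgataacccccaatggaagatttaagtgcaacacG
Ndufs5, bases 1 to 120 of the copy: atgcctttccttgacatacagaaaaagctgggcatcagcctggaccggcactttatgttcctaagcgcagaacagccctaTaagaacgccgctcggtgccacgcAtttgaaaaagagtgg
BC002163, bases 1 to 120: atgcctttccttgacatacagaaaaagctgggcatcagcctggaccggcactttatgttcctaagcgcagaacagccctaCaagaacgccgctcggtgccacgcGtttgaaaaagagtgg
Ube2j2 itself had 9.1 to 15.5 CPM over the 12 libraries and an interaction of -0.14 (SE 0.31). Ndufs5 had 15 reads in all 12 libraries together, at most 11 in one, and was not tested. Whether reads were exchanged between copy and parent was not tested.

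The genes of smallest p on each side of the sum were then read, 12 above and 12 below, as a description of what this comparison ranked first and not as calls. Apart from the 3 genes above, none was called. Among the 12 above, 7 had all 3 double-deficient libraries above all 9 others, a pattern that 1.14% of all genes showed, and among the 12 below 5 had them below all 9 others, against 1.1%. The ranking and the pattern come from the same libraries, so nothing is read from these counts. The gene just outside the calls was Fibcd1, a chitin-binding membrane receptor, with an adjusted p of 0.0551. It had 1.76, 2.15 and 2.48 CPM in Plcg1-/-Plcg2-/- CLPs and at most 0.57 CPM in any other library. The Plcg1+/+Plcg2-/- libraries held 0, 1 and 0 reads of it. The size of its fitted fold thus depends on the default prior count of the fit and is not given.

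**Figure D2:**
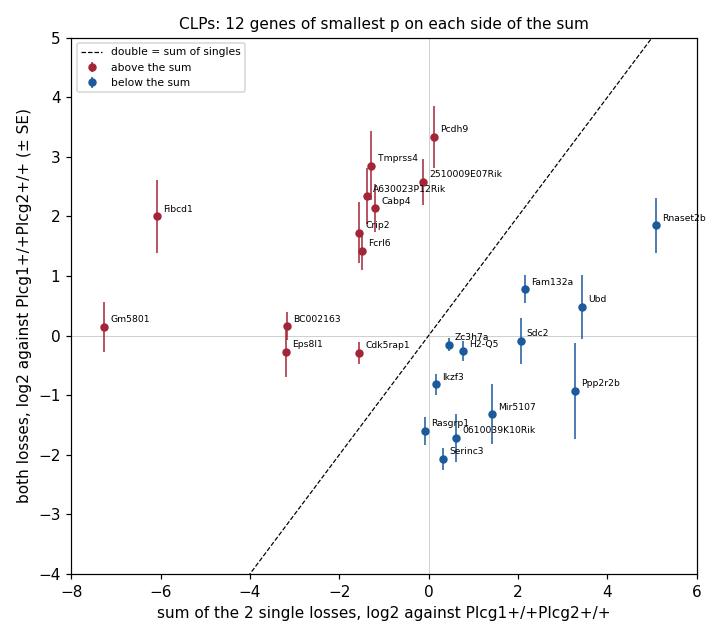
The log2 difference of Plcg1-/-Plcg2-/- from Plcg1+/+Plcg2+/+ CLPs (y axis, points with SE) against the sum of the log2 differences of both single-deficient genotypes (x axis) for the 12 genes of smallest p above and the 12 below the sum. Points on the dashed line would be additive, and Serinc3 and Rasgrp1 sit near 0 on the x axis and far below 0 on the y axis.

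A first kind of gene was higher with both losses than in every other library. Pcdh9, a protocadherin adhesion molecule, had 3.4, 5.56 and 9.7 CPM in Plcg1+/+Plcg2+/+ CLPs, 4.71, 3.75 and 7.03 CPM with the loss of Plcg1, 8.21, 5.11 and 13.2 CPM with the loss of Plcg2, and 39.6, 46.1 and 108 CPM with both. Fcrl6, an Fc receptor-like surface protein, had 4.84 to 7.51 CPM in the wild type, 2.5 to 5.05 and 2.62 to 3.65 CPM with the loss of Plcg1 or Plcg2, and 11.9, 15.3 and 20.3 CPM with both. In both genes the double-deficient group did not overlap any other. Their interactions were 3.23 (SE 0.71) and 2.91 (SE 0.47), with edgeR adjusted p of 0.825 and 0.17. Cabp4, a neuronal calcium-binding protein, had 6.37, 11.3 and 17.9 CPM with both losses and 1.24 to 3.38 CPM in all other libraries (interaction 3.33, SE 0.58). Tmprss4, a membrane serine protease, had 3.28, 5.86 and 12.7 CPM against 0.417 to 1.47 CPM (4.12, SE 0.84). In the uncharacterized genes A630023P12Rik (interaction 3.71, SE 0.67) and 2510009E07Rik (2.70, SE 0.52) the double-deficient libraries also lay above all others. The single losses were not always near the wild type. With the loss of Plcg2 the log2 difference was -0.92 (SE 0.33) in Fcrl6, -0.94 (SE 0.42) in Cabp4 and -1.03 (SE 0.48) in A630023P12Rik, and in Tmprss4 it was -0.64 (SE 0.59) and -0.63 (SE 0.61) with the loss of Plcg1 and Plcg2. Cabp4 overlaps Gpr152 and Tmprss4 overlaps BC049352 in the annotation, so their reads are in part uncertain. DESeq2 called all 6 of these genes, whereas edgeR's quasi-likelihood test called none, with 428 genes above the sum at a nominal p of 0.05 or less. With a block for replicate numbers, edgeR called Pcdh9 (adjusted p = 0.0249).

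A second kind was low with 1 or both single losses and near the wild type with both. Eps8l1, which links receptor signals to actin, had 21, 23.7 and 16.5 CPM in the wild type, 2.34, 1.56 and 6.15 CPM with the loss of Plcg2, and 15.6, 19 and 15.9 CPM with both (interaction 2.92, SE 0.62). The 3 Plcg1+/+Plcg2-/- libraries lay below all others. Cdk5rap1, which modifies mitochondrial transfer RNAs, had 13.8 to 14.7 CPM in the wild type, 6.98 to 9.90 and 7.47 to 8.21 CPM with the single losses, and 10.6 to 13.3 CPM with both (1.27, SE 0.28). In Fam132a, a secreted adiponectin-related factor, all 3 knockout groups lay above the wild type, with 11.7 to 17.4 CPM in the wild type, 28.3 to 29.9 and 23.2 to 36.6 CPM with the single losses, and 20.3 to 29.2 CPM with both (-1.37, SE 0.32). Rnaset2b, a lysosomal ribonuclease, had 0.869, 0.967 and 3.48 CPM in the wild type, 10.4, 7.65 and 8.12 CPM with the loss of Plcg1, 16.6, 12.4 and 15.2 CPM with the loss of Plcg2 and 9.32, 5.6 and 6.07 CPM with both. Here too all 3 knockout groups lay above the wild type, and the interaction of -3.23 (SE 0.63) reflects a value with both losses below the product of the single changes. Its transcript is 99.1% identical to that of Rnaset2a, so this value is uncertain.

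Over all 620 genes with a nominal p of 0.05 or less and an absolute interaction of at least 0.5 (4.08% of those tested), shapes of this kind were counted with a log2 boundary of 0.5 for each knockout against the wild type. In 101 of them (16.3%) both losses together moved the gene while neither single loss did, 67 upward and 34 downward. In 90 (14.5%) both single losses moved it one way and the double-deficient group stayed near the wild type, 24 above and 66 below the sum. In 48 (7.74%) all 3 knockouts moved the same way. The rest, 381 genes, had other shapes, BC002163 with its change in 1 single-deficient group among them. Among all genes tested the shares of these 3 shapes were 8.01%, 3.2% and 5.97%. The selected genes had to depart from the sum, so these shares are a description. On the linear CPM scale 0 of the 620 had the other sign.

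The direct effectors of the phospholipase Cγ products came next. Rasgrp1, the diacylglycerol-dependent Ras activator of lymphocytes, had 59.2, 46.9 and 45.8 CPM in Plcg1+/+Plcg2+/+ CLPs, 58.7, 43.6 and 48.5 CPM with the loss of Plcg1, 49.9, 50.1 and 45.3 CPM with the loss of Plcg2, and 20.3, 19.5 and 10.3 CPM with both. The double-deficient libraries lay below all others, while the 3 other groups overlapped. The single losses differed from the wild type by -0.01 (SE 0.23) and -0.06 (SE 0.23) and both losses by -1.60 (SE 0.24), for an interaction of -1.53 (SE 0.33, edgeR adjusted p = 0.801). DESeq2 called it at an adjusted p of 0.0175. Rasgrp2, a calcium- and diacylglycerol-regulated activator of Rap1, went the other way, with 279 to 346 CPM in the wild type, 255 to 367 and 285 to 300 CPM with the single losses, and 366, 501 and 594 CPM with both (0.78, SE 0.26). Here the lowest double-deficient library overlapped the Plcg1-/-Plcg2+/+ group. Rasgrp3 had 5.86 to 9.78 CPM with both losses against 8.18 to 23.4 CPM elsewhere (-1.36, SE 0.51). Malt1, a paracaspase, had an interaction of -0.49 (SE 0.18), and Dgka, which consumes diacylglycerol, one of 0.86 (SE 0.35). Both were named after their values were seen. Prkd1, a protein kinase D, had 21 reads or fewer in every library. Of the 26 diacylglycerol effectors, 2 lay above and 4 below the sum at a nominal p of 0.05 or less, against 2.81% and 1.95% of all genes, with a list median of -0.22 beside -0.04. Without Plcg1+/+Plcg2+/+ replicate 1 these counts were 3 and 5, beside 7.08% and 4.78% of all genes. Without the 2 shallowest libraries they were 0 and 2, beside 1.41% and 0.908%. Of 23 genes of the inositol trisphosphate, calcium and NFAT branch none reached that p, with a median of 0.09, and Nfatc3 had the smallest (0.40, SE 0.20). None of 14 phospholipase C genes reached it (median -0.35).

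Lists for interleukin 7 receptor signalling and its downstream pathways had few genes at a nominal p of 0.05 or less. Among all genes 2.81% lay above the sum and 1.95% below it at that p. Of 24 genes for the receptor, its JAK and STAT proteins and SOCS inhibitors, 0 had a nominal p of 0.05 or less by edgeR, with a median of -0.10 and the smallest p in Stat3 (-0.32, SE 0.18). Il7r had an interaction of 0.41 (SE 0.77). Of 28 genes of the mTOR complexes and their regulators 1 lay above the sum, Rptor, the defining subunit of mTORC1. Rptor had 91.6, 118 and 106 CPM in the wild type, 71.3, 102 and 91.7 CPM with the loss of Plcg1, 89.5, 85.8 and 78.2 CPM with the loss of Plcg2 and 100, 134 and 161 CPM with both (0.89, SE 0.26), and the groups overlapped. Of 21 genes of the PI3K and AKT pathway 2 lay above it, the lipid phosphatase gene Inpp5d (0.73, SE 0.33) and Foxo1 (1.27, SE 0.57), whose product activates Il7r and the Rag genes. The ERK feedback inhibitor Spred2 (0.94, SE 0.40) was 1 of 14 of its list above the sum, and the immediate early gene Egr3 (-1.95, SE 0.82) was 1 of 26 below it.

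**Figure D3:**
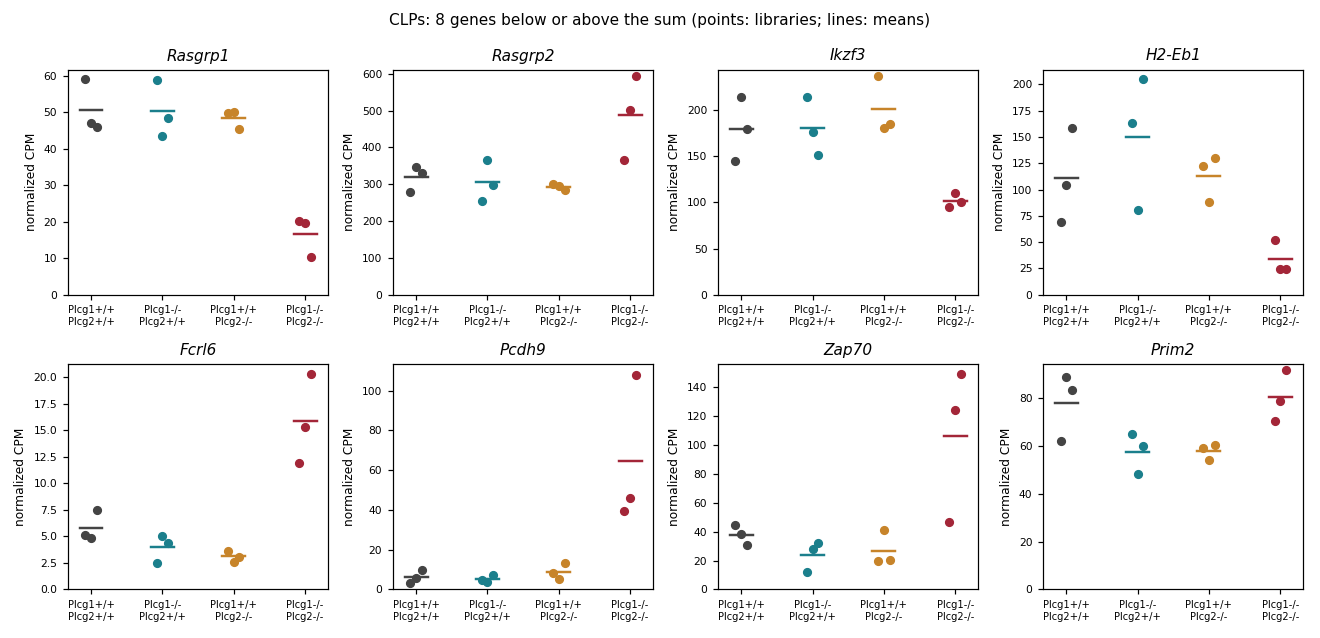
Normalized CPM (y axes from 0) of 8 genes in the 12 CLP libraries by genotype, with points for libraries and lines for means. Rasgrp1, Ikzf3 and H2-Eb1 have their 3 double-deficient libraries below, and Fcrl6, Pcdh9 and Zap70 above, all 9 others, whereas Rasgrp2 and Prim2 overlap.

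Among factors that direct lymphoid development, Ikzf3, which encodes the zinc-finger repressor Aiolos of later B cell stages, had 145, 215 and 180 CPM in the wild type, 215, 177 and 152 CPM with the loss of Plcg1, 237, 181 and 185 CPM with the loss of Plcg2 and 94.7, 110 and 101 CPM with both. The double-deficient libraries lay below all others (interaction -0.99, SE 0.25, edgeR adjusted p = 0.862). Tcf12, an E protein (0.75, SE 0.25), Foxo1 and Cbfb, the partner of Runx factors (0.49, SE 0.22), lay above the sum. In Tcf12 the single-deficient groups, at 148 to 149 and 122 to 143 CPM, were below the wild type at 169 to 253 CPM, and with both losses it had 125 to 191 CPM. These 4 of the 32 factors had a nominal p of 0.05 or less, 3 above and 1 below, against 2.81% and 1.95% of all genes. The list median was 0.29. Without Plcg1+/+Plcg2+/+ replicate 1 there were 11 above and 1 below, beside 7.08% and 4.78% of all genes. Without the 2 shallowest libraries there were 0 and 1, beside 1.41% and 0.908%.

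Genes of the pre-B cell receptor and B cell surface lay on both sides of the sum. The surrogate light chain gene Vpreb1 had 63, 275 and 294 CPM in the wild type, 83.5, 134 and 231 CPM with the loss of Plcg1, 112, 121 and 272 CPM with the loss of Plcg2 and 204, 481 and 719 CPM with both (1.97, SE 0.87). Bst1, the early B cell marker BP-3, had 70.1, 135 and 205 CPM with both losses against 18.5 to 75.7 CPM elsewhere (1.59, SE 0.71). In both genes the groups overlapped. Fcer2a, the low-affinity IgE receptor CD23 of mature B cells, had 8.19, 12.6 and 19 CPM in the wild type and 4.04, 0.603 and 1.07 CPM with both losses (-3.38, SE 1.06). It had 35.4, 13.6 and 11.2 CPM with the loss of Plcg1. With the loss of Plcg2 it had 20, 3.73 and 17.1 CPM, which overlapped the double-deficient group. Only Vpreb1, Bst1, Fcer2a and Cd74 of the 26 genes had a nominal p of 0.05 or less, 2 above and 2 below. The shares over all genes were 2.81% and 1.95%, and the list median was 0.38. The median was 0.09 without Plcg1+/+Plcg2+/+ replicate 2, and without replicate 1 of that group it was 0.57 with 12 genes above and 3 below. In that last setting 7.08% and 4.78% of all genes lay above and below at that p. Pax5, the B cell commitment factor, had an interaction of 0.87 (SE 0.78). The summed level of the 5 B cell markers was 434 to 2840 CPM in the wild type, 921 to 1500 and 893 to 1690 CPM with the single losses and 1210 to 3260 CPM with both, and its part in these values was not tested. None of 14 genes of V(D)J recombination reached that p (median 0.38).

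MHC class II genes, which present antigen to CD4+ T cells and are expressed by maturing B cells, dendritic cells and macrophages, had the lowest median interaction of the lists, apart from the secreted ribonucleases and the Y-linked genes. Of 11 genes tested, 7 lay below the sum and 0 above it at a nominal p of 0.05 or less. The median was -1.22, and 1.95% and 2.81% of all genes lay below and above at that p. H2-Eb1 had 69.1, 104 and 159 CPM in the wild type, 163, 80.8 and 205 CPM with the loss of Plcg1, 122, 87.7 and 130 CPM with the loss of Plcg2 and 51.9, 24.3 and 24.4 CPM with both (-2.18, SE 0.58). Ciita, the transactivator on which the class II genes depend, had 15.7, 6.55 and 5.78 CPM with both losses against 17.5 to 52.2 CPM elsewhere (-2.09, SE 0.72). H2-DMb2 had 4.74 to 8.33 against 10.4 to 31.2 CPM (-1.96, SE 0.58). In these 3 genes the double-deficient libraries lay below all 9 others. Cd74, the invariant chain, had 310, 103 and 150 CPM with both losses and 222 to 777 CPM elsewhere (-2.04, SE 0.69), so its groups overlapped. Mir5107 lies within Cd74, and its reads cannot be told apart from those of Cd74. The summed level of the 11 genes was 907 to 1610 CPM in the wild type, 1070 to 1870 and 1020 to 1630 CPM with the single losses and 542 to 854 CPM with both. The count below the sum was 6 without Plcg1+/+Plcg2+/+ replicate 1 and 4 without the 2 shallowest libraries. In those settings 4.78% and 0.908% of all genes lay below it at that p. No single gene of the list was called by edgeR. Of 18 dendritic cell genes and 20 macrophage genes, lists whose cells also carry class II, 0 and 1 lay below the sum at that p, the 1 being Vcam1 (-1.24, SE 0.44). The dendritic cell list had a median of -0.69 with 1 of 18 positive, and the macrophage list one of -0.33. Without Plcg1+/+Plcg2+/+ replicate 1, 4 dendritic cell genes (median -1.30) and 2 macrophage genes lay below, and without the 2 shallowest libraries 0 (median -0.16) and 1. The part of such cells in the class II values was not tested.

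Genes of cell division leaned above the sum, with list medians below the wild type by a similar size in each of the 3 knockout groups. Prim2, the large primase subunit, had 62.1, 88.5 and 83.1 CPM in the wild type, 64.8, 48 and 59.8 CPM with the loss of Plcg1, 59, 54.2 and 60.2 CPM with the loss of Plcg2 and 70.1, 78.6 and 91.7 CPM with both (0.91, SE 0.23). Tyms, thymidylate synthase (0.86, SE 0.23), the histone chaperone subunit Chaf1b (0.79, SE 0.21) and Rpa1, a single-stranded DNA binding protein (0.60, SE 0.19), had the same sign. Of 41 DNA replication genes, 7 lay above and 0 below the sum at a nominal p of 0.05 or less. The shares over all genes were 2.81% and 1.95%. Of the 41, 35 were positive, and the list median was 0.24. Its median difference from the wild type was -0.25 with the loss of Plcg1, -0.27 with the loss of Plcg2 and -0.29 with both. All 36 mitosis genes were positive (median 0.43), and 0 had a nominal p of 0.05 or less by edgeR. That median was 0.17 without Plcg1+/+Plcg2+/+ replicate 2, 0.71 without replicate 1 of that group, and 0.22 with 34 positive without the 2 shallowest libraries. Their medians against the wild type were -0.34, -0.39 and -0.30. The summed level of the mitosis genes was 5500 to 11500 CPM in the wild type, 6070 to 8120 and 6400 to 7210 CPM with the single losses and 6600 to 8020 CPM with both. Without Plcg1+/+Plcg2+/+ replicate 1, 27 of the 36 and 15 of the 41 lay above the sum at that p, whereas without the 2 shallowest libraries 0 and 4 did. Of all genes, 7.08% and 1.41% lay above the sum at that p in those settings. Cdkn2a, the INK4A and ARF tumour suppressor locus, had 3.66, 6.72 and 11.8 CPM with both losses and 0.537 to 3.87 CPM elsewhere (3.39, SE 0.85).

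Genes of other blood cell types were counted because a sorted population can hold other cells. Among all genes 46% were positive, and 2.81% lay above and 1.95% below the sum at a nominal p of 0.05 or less. Of 22 granulocyte and monocyte genes none was positive and none had a nominal p of 0.05 or less, with a median of -0.72. Their summed level was 3370 to 5950 CPM in the wild type, 4760 to 13300 CPM with the loss of Plcg1, 3900 to 11700 CPM with the loss of Plcg2 and 5370 to 11900 CPM with both, so the groups overlapped. Of 19 NK and innate lymphoid genes 1 was positive (median -0.98), but the list ranged from -2.29 without Plcg1+/+Plcg2+/+ replicate 1 to -0.15 without Plcg1+/+Plcg2-/- replicate 2. Of 20 T cell genes 1 reached that p, Zap70, the kinase of the T cell receptor, which some B cell precursors also express. Of the 20, 6 were positive and the median was -0.75, from -1.09 to 0.39 with 1 library left out. Zap70 had 44.9, 38.2 and 31 CPM in the wild type, 11.9, 28.3 and 32 CPM with the loss of Plcg1, 19.4, 40.9 and 20.4 CPM with the loss of Plcg2 and 46.5, 124 and 149 CPM with both (2.63, SE 0.66), above all others. Among the 5 T cell markers the interaction was 0.01 (SE 0.98) for Cd3e, 0.06 (SE 1.01) for Cd3g and -0.36 (SE 0.98) for Cd3d. It was -1.07 (SE 1.38) for Cd8a and -1.93 (SE 1.20) for Cd4. Cd3e, a T cell receptor subunit gene, ranged from 1.81 to 17.3 CPM over the 12 libraries. Erg, a factor of stem and multipotent progenitors, was 1 of 23 in its list above the sum (1.40, SE 0.49), and Car2 was 1 of 15 erythroid genes (1.06, SE 0.48). The part of other cells in the values above was not tested.

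**Figure D4:**
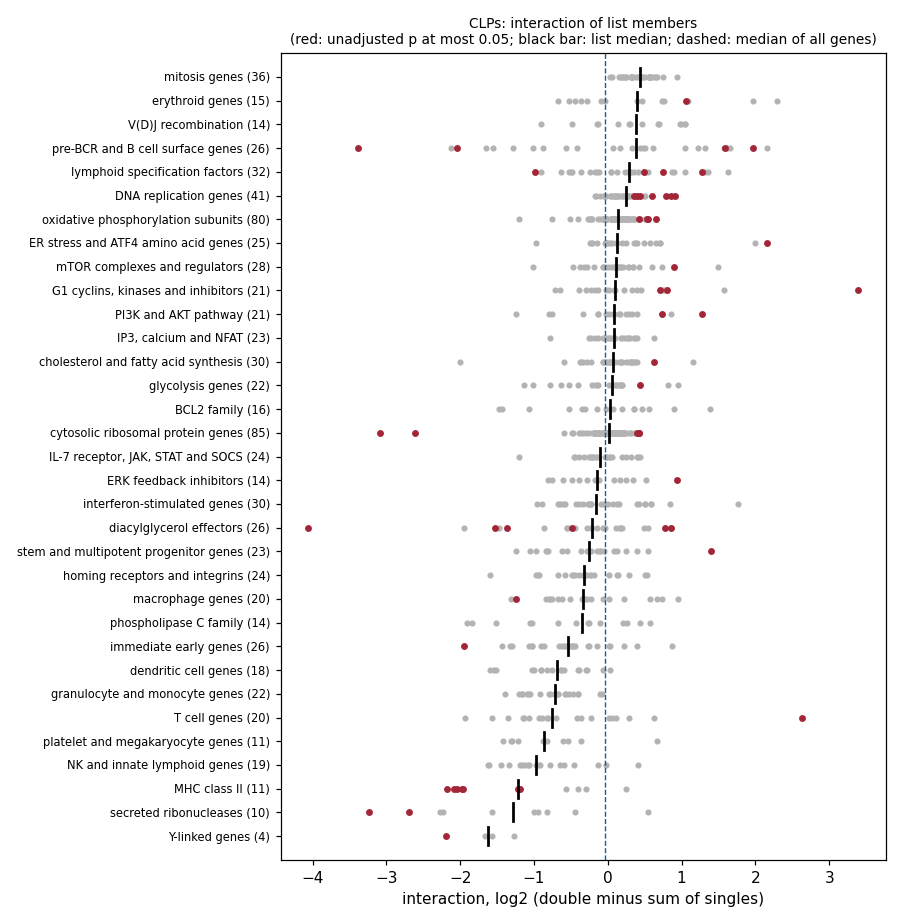
The interaction of each tested member (points, log2, x axis) of the gene lists (y axis, with the number tested), with members at a nominal p of 0.05 or less in red, list medians as black bars and the median of all genes as a dashed line. MHC class II genes center at -1.22 and mitosis genes at 0.43, and most lists center within 0.5 of the dashed line.

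Few genes of the remaining lists had such a p. Of 85 ribosomal protein genes 3 lay above and 2 below the sum at a nominal p of 0.05 or less (median 0.01), and of 80 oxidative phosphorylation genes 4 above and 0 below (median 0.14). Among all genes 2.81% lay above and 1.95% below at that p. The 2 ribosomal genes below were Rpl10l (-3.09, SE 0.89) and Rpl39l (-2.61, SE 0.76), relatives of Rpl10 and Rpl39, and those above included Rpl29 (0.42, SE 0.17) and Rplp0 (0.39, SE 0.17). Of 30 interferon-stimulated genes and 16 BCL2 family genes none reached it, with medians of -0.16 and 0.03. The pseudokinase gene Trib3, a target of ATF4, was 1 of 25 stress response genes above the sum (2.15, SE 0.91), Pmvk 1 of 30 lipid synthesis genes (0.62, SE 0.26) and Gapdh 1 of 22 glycolysis genes (0.43, SE 0.19). Among 24 homing receptors and integrins (median -0.32) and 11 platelet genes none reached it, though 1 of the 11 platelet genes was positive and their median was -0.86.

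Genes near the targeted loci were counted because Serinc3 lies on the chromosome of Plcg1, a choice made after its value was seen. Of 103 other genes tested within 5 Mb of Plcg1, 13 had a nominal p of 0.05 or less (12.6%, against 4.77% of all genes), 8 above and 5 below the sum. Besides Serinc3 and 0610039K10Rik these included Ttpal (mean 134 CPM in the wild type, 106 and 76 CPM with the loss of Plcg1 or Plcg2, 179 CPM with both, interaction 1.57, SE 0.46), Sys1 (0.75, SE 0.23), Ndrg3 (0.66, SE 0.23) and Samhd1 (-0.79, SE 0.31). Of 60 genes within 5 Mb of Plcg2, 1 did (1.67%), Atmin (0.55, SE 0.22). Without Plcg1+/+Plcg2+/+ replicate 1 the counts were 25 of 103 and 11 of 60, and without the 2 shallowest libraries 7 of 102 and 0 of 60. Of all genes, 11.9% and 2.32% reached that p in those settings. The share near Plcg1 was not tested against the rest of the genome.

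The B cell progenitors of the same mice gave a second set of libraries for these genes, though not an independent one, since each mouse gave both. Between 59.9% and 87.3% of their reads fell on no gene, and 1479582 to 25057223 reads per library fell on genes. In them 20.3% of 17212 genes had a nominal interaction p of 0.05 or less, so a gene at that p is of little weight, and 5 (0.029%) were called. Serinc3 had 1740, 1920 and 1700 CPM in wild-type B cell progenitors, 1310, 1620 and 1350 CPM with the loss of Plcg1, 2380, 3150 and 2680 CPM with the loss of Plcg2 and 466, 323 and 570 CPM with both. As in CLPs, the double-deficient libraries lay below all others, with an interaction of -2.27 (SE 0.28). Gm5801 had 4.73 to 5.13 CPM in the wild type, 1.37 to 1.77 and 0 to 1.48 CPM with the single losses and 2.25 to 4.85 CPM with both (3.45, SE 0.75), and BC002163 was again low with the loss of Plcg1, at 0.342 to 2.41 CPM against 6.89 CPM or more elsewhere (2.61, SE 0.52). Rasgrp1 had 50.5 to 82.3 CPM in the wild type and 2.96 to 16.4 CPM with both losses (-1.76, SE 0.57), Ikzf3 had an interaction of -1.12 (SE 0.43) and Eps8l1 one of 3.77 (SE 0.63). Smaller interactions than in CLPs were found for Fibcd1 (1.26, SE 1.24), 2510009E07Rik (0.96, SE 0.69), Cdkn2a (0.90, SE 1.04) and Zap70 (1.11, SE 0.63).

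No gene was called for a difference of the interaction between CLPs and B cell progenitors. Of 17212 genes tested in both populations with edgeR 0 were called (0%), 758 had a nominal p of 0.05 or less (4.4%), 708 with the higher interaction in CLPs, and DESeq2 also called 0, with 868 at that p. Without B cell progenitor Plcg1-/-Plcg2+/+ replicate 2, 457 genes had that p in edgeR, 275 of them higher in CLPs. Without B cell progenitor Plcg1+/+Plcg2+/+ replicate 1 there were 1855, with 1468 higher. The excess in CLPs thus depends on single libraries. The difference was -0.13 (SE 0.38) for Serinc3, 0.70 (SE 0.71) for BC002163 and 0.24 (SE 0.78) for Rasgrp1. For Gm5801 it was 3.95 (SE 1.06), with an adjusted p of 1. The standard errors leave differences of more than 1 log2 unit possible for most of these genes, so the missing calls do not show that both populations behaved alike.

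**Figure D5:**
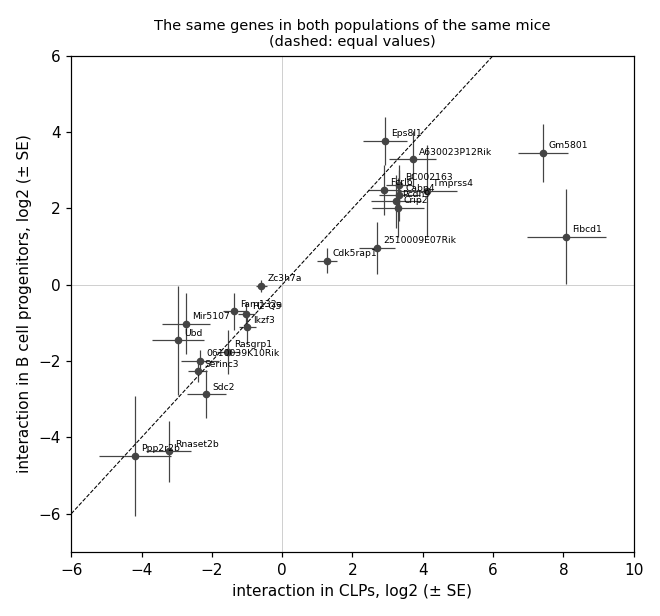
The interaction in B cell progenitors (y axis, log2, SE) against that in CLPs (x axis, log2, SE) for the 12 genes of smallest CLP p on each side of the sum, with equal values on the dashed line. Serinc3 sits at -2.40 and -2.27, and Gm5801 and Fibcd1 lie furthest below the line, and both populations came from the same mice.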

How the data were processed

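Raw counts per gene symbol were used as the authors deposited them, 1 table per library, without normalization. Per the labels and the submitters' processing notes, poly(A) RNA was sequenced and aligned to mm10 with STAR 2.5.0a. The counting program and its strand setting are not given in the sources used here. Lines for reads on no gene (17.9% to 45.2% of reads in CLPs) and for ambiguous reads (1.06% to 1.44%) were left out.

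Groups followed the sample labels. The 12 CLP libraries were fitted together with edgeR 4.0.16 (R 4.3.3, TMM, filterByExpr, glmQLFit, glmQLFTest, Benjamini-Hochberg adjustment), which kept 15209 of 24421 genes, and the interaction was tested as 1 contrast. Both populations were fitted together for their difference. Unadjusted p-values are from the same edgeR fits, SEs were derived from the F statistic, and CPM are TMM-normalized. A prior count of 2 entered only log CPM, as in the correlations of deviations. The fits kept edgeR's default prior count. Scripts were first tested on simulated data. Chi-square values divided by their degrees of freedom were at least 10.5 for libraries of the same group, so none was a copy.

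Named genes were all calls, the 12 of smallest p on each side at an absolute log2 value of at least 0.5, in each list up to 4 members at p of at most 0.05 or else the smallest p, the targeted genes, markers and sex-linked genes. The lists and members were chosen with earlier results of these data known. Alternatives were RLE, no filter, DESeq2 1.42.0, limma 3.58.1 voom with quality weights, a replicate block, the share of reads on no gene as covariate, 24 libraries in 1 fit, and leaving out libraries. CLP and B cell progenitor libraries were paired by the mouse number in the titles (12 pairs, correlation of deviations -0.35 to 0.53). Positions are from RefSeq on GRCm38.p6 or GENCODE M21, and 15167 symbols had 1 position. Figures were drawn with matplotlib 3.10.9.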

Additional observations from a re-analysis of the deposited data

Results flagged for a closer look

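In 3 genes the effect of losing Plcg2 differed between Plcg1+/+ and Plcg1-/- CLPs by the edgeR test of the interaction itself. The log2 interaction was 7.41 for Gm5801, 3.32 for BC002163 and -2.40 for Serinc3. The size for Gm5801 rests on 1 to 8 reads in each single-deficient library and is uncertain. Gm5801 and BC002163 are pseudogenes with a near-identical parent, and Serinc3 lies 2.85 Mb from Plcg1. The cause of these differences was not tested. Groups of 3 libraries were too small for a test of single outlying libraries.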

How the results depend on the processing

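The 3 calls became 29 with DESeq2, 5 with 24 libraries in 1 fit, 1 with the share of reads on no gene as covariate, 0 without the 2 shallowest libraries, and 1 to 4 with each library left out (1 without Plcg1+/+Plcg2-/- replicate 1 or Plcg1-/-Plcg2-/- replicate 3). The replicate block gave 9 calls, which included the 3. It also gave 1423 genes at a nominal p of 0.05 or less, against 725. The labels do not say what a replicate number shares. The correlation of deviations was -0.22 to 0.645 (mean 0.225) over 18 same-number pairs, 12 of them over 0.1, and -0.113 on average over other pairs. As a hint from the data, 10 of 12 libraries correlated best with their own number. Since the labels name no shared factor, the main fit has no block, and its calls and nominal counts depend on that choice. What the numbers share was not tested. RLE, no filter, limma voom and adjusted p alone gave 3 calls each, all shared. The unadjusted p of limma voom was 0.05 or less in 2176 genes (14.3%), so counts at that p depend on the test. The difference between populations stayed at 0 calls in every alternative, with the mouse as block too. DESeq2 added calls for 17 of the 83 named genes. The sign changed for Plce1 (0.02) and Plcg2 (0.07) with the covariate, for Plcg2 also when 1 library was left out (-0.24 to 0.05), and for Xist (0.16) without the 2 shallowest libraries.

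List medians moved with the covariate to 0.08 for phospholipase C genes, 0.19 for ribosomal protein genes and 0.35 for oxidative phosphorylation. Leaving out 1 library gave mitosis 0.17 to 0.71, B cell surface genes 0.09 to 0.57, dendritic cell genes -1.30 to -0.34, MHC class II -1.69 to -1.04, DNA replication 0.15 to 0.31, phospholipase C -0.73 to -0.12, mTOR 0.07 to 0.21, PI3K and AKT 0.10 to 0.25, T cell genes -1.09 to 0.39, NK genes -2.29 to -0.15, platelet genes -1.51 to -0.44, stem cell genes -1.12 to 0.12, homing receptors -0.68 to -0.06, immediate early genes -1.05 to 0.20, ERK inhibitors -0.25 to 0.38, G1 cyclins 0.04 to 0.31, ER stress genes 0.05 to 0.33, ribonucleases -2.55 to -0.75 and Y-linked genes -2.96 to -1.15. The cause was not tested. With 3 libraries a group the median SE was 0.39, and interactions as large as that of Tmprss4 (4.12, adjusted p = 0.626) were not called by edgeR.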
